A study of Drosophila melanogaster with 2 samples.

Results

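Binding of the transcription factor kay was described at 5 genes of *Drosophila melanogaster*: ush, cbt, srp, pnr and GATAe. The annotation holds 18164 nuclear genes, 13945 of them protein-coding. The set was chosen by the measured signal and rank of the peaks at ush, which encodes a GATA cofactor, and at cbt, which lies inside ush. The GATA zinc-finger factors srp, pnr and GATAe were taken with them. A peak was counted at a gene when its summit, the base of highest signal, lay in the gene or within 1 kb of one of its transcription starts. Peaks that met this rule for ush and for cbt were counted once.

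The measurement was chromatin immunoprecipitation with sequencing (ChIP-seq) on whole adult males of the strain kay-GFP, a transgenic line that stably expresses kay with a green fluorescent protein (GFP) fused to its C-terminal end, which the labels also call a kay-eGFP fusion. The sheared chromatin, broken by sonication, was precipitated with an antibody against GFP. There was 1 group with 2 biological replicates, numbered 1 and 3 in the labels, and the age of the flies is given as unknown. Peaks from whole flies cannot be assigned to a tissue, the labels do not say whether the line also makes untagged kay, and no control library was analysed here.

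kay is the Fos protein of the fly, and Jra its Jun protein. As a pair they make up AP-1, which acts downstream of the JNK cascade in wound healing, stress responses and dorsal closure of the embryo, and binds the site TGACTCA, whose reverse complement is TGAGTCA. The GATA factors are zinc-finger proteins that bind sites with the core GATA. srp is needed for fat body and blood cells, pnr for dorsal closure, the heart and the bristle pattern of the thorax, and GATAe for the midgut. ush is the fly member of the Friend of GATA family, multiple zinc-finger proteins that bind GATA factors and modify their action. ush restrains pnr in bristle formation and works with srp in blood cells. cbt is a zinc-finger factor of the KLF family that is also needed for dorsal closure.

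The sequences on which the results turn are from chromosome arms 2L and 3R of the Release 6 genome (dm6), plus strand, 5′ to 3′. At ush and cbt the optimal list, which holds the peaks that the authors kept after the irreproducible discovery rate (IDR) step, had 3 peaks, named here by their rank in signal among its nuclear peaks. The capitals mark every 7-base word within 100 bp of the summit that equals TGACTCA or TGAGTCA or differs from either at 1 base. The windows of ranks 20 and 153 are given whole, and for rank 139, which lies in a 5′ UTR, short pieces around the marked words are given.
Rank 20, chr2L:480677-480877: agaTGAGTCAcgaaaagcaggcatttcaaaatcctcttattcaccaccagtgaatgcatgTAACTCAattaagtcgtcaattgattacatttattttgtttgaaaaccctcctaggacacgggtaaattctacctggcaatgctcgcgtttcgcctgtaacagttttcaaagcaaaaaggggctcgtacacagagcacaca
Rank 153, chr2L:479916-480116: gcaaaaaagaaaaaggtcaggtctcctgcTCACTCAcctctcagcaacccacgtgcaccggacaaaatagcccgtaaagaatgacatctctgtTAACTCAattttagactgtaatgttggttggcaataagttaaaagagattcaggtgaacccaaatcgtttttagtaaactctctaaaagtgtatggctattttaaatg
Rank 139, chr2L:478804-478832: ttattatgacgTGCCTCAggtgggtgatt
Rank 139, chr2L:478854-478882: ggggtgtattaTGACTCGtgcgaagacgt

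Rank 20 held the exact word TGAGTCA near the left end of its window and a near match closer to the summit. Ranks 139 and 153 held near matches and no exact word. Counted from 1 at the 5′ end of TGACTCA, the near match of rank 20 was G2A, at 37 bp left of the summit. Those of rank 153 were G2C, at 68 bp left, and G2A, at 4 bp left. Those of rank 139 were A3C, at 80 bp left, and A7G, at 30 bp left.

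For contrast, pnr had 4 exact AP-1 sites, all in introns, and the closest summit of any list to one of them was 9930 bp away. They are shown with 11 bases on each side, the site in capitals.
pnr, chr3R:16028935-16028963: ggaggaggtcaTGAGTCAaaagcgctgcg
pnr, chr3R:16029263-16029291: taccaggcaccTGAGTCAattattcgata
pnr, chr3R:16033629-16033657: tacttgcaattTGAGTCAtctgaattaat
pnr, chr3R:16035713-16035741: caatgaatgaaTGAGTCAagtggaggtgg

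The site of rank 20 carries the same 7 bases as those 4, and is given in the same form with the other 2 sites in ush that lay within 100 bp of a replicate 3 summit.
ush, chr2L:480669-480697: gataacaaagaTGAGTCAcgaaaagcagg
ush, chr2L:494923-494951: agctatccaatTGAGTCAgaagtggaatt
ush, chr2L:523870-523898: acagtgagtagTGAGTCAaagaaaattcc

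Of the 5 genes, 2 had a summit in the optimal list, ush and cbt, with 3 distinct peaks between them. In that list 1.22% of protein-coding genes had a summit, and 3.54% of those of 10 kb or longer. In the pooled list, called on both replicates together, 3 of the 5 genes had a summit, with 11 distinct peaks, beside 15.2% of protein-coding genes and 45.7% of the long ones. In the replicate 1 list it was 3 of 5 genes and 8 peaks, beside 9.52% and 30.8%. In the replicate 3 list it was 4 of 5 genes and 25 peaks, beside 34.7% and 77.5%. GATAe was the third gene in the pooled and replicate 1 lists, srp joined it in replicate 3, and pnr had no summit in any of the 4 lists. Since the genes were chosen with these peaks known, the shares describe how common a summit is and no test was made.

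The optimal list held 165 nuclear peaks with a median signal of 150.9, and the pooled list 4317 with a median of 42.32. Replicate 1 had 2024 nuclear peaks with a median of 25.91 and replicate 3 had 13804 with a median of 18.71. The signal is the authors' value per peak and its scale differs between lists, so levels are given below as ranks within a list and as multiples of that list's nuclear median. The lists also differ in how far they run down to weak peaks: the peaks at or under a q-value of 0.05 numbered 165 in the nuclear part of the optimal list, 294 in the pooled list, 149 in replicate 1 and 447 in replicate 3. The median of a list falls as more weak peaks are listed, so multiples of it depend on list length too. Read depth is unknown, and it was not tested how far the longer list of replicate 3 sets its larger counts and multiples.

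ush, FBgn0003963, spans 64341 bp of chromosome arm 2L (476220-540560, dm6, plus strand) and has 4 transcription starts. cbt, FBgn0043364, runs the other way at 476446-479688, 3243 bp that lie wholly inside the first intron of ush. That intron covers 476332-489516, 13185 bp. All 3 optimal peaks lay in it, within 1879 bp of each other and around the start of cbt, not that of ush. Only 1 other place in the optimal list, at CG11050, had 3 nuclear summits within 2 kb, over 1900 bp. ush was 1 of 4 protein-coding genes with 3 optimal summits, beside CG11050, spen and shn, while 16 had 2 and 150 had 1.

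The highest peak of the locus was rank 20, at 480567-480986 with its summit at 480777, in the ush intron and 1089 bp upstream of the cbt start. It was counted at ush and fell outside the 1 kb rule for cbt by less than the width of a peak. Its signal was 254 in the optimal and pooled lists, with a q-value of 0.00315. In replicate 1 its signal was 147.2, 5.68 times the list median and rank 15 of 2024, and in replicate 3 it was 103.4, 5.52 times the median and rank 55 of 13804. The summits of the replicates, 480781 and 480775, lay 4 bp to the right and 2 bp to the left of that of the optimal list. This peak stood at nearly the same multiple of the median in each replicate.

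Rank 139 lay at 478688-479107 with its summit at 478898, in a 5′ UTR of cbt, 790 bp downstream of the cbt start. That UTR belongs to the cbt form whose exon spans the gene. In forms with a shorter first exon the summit lay in an intron. Its signal was 120.6 with a q-value of 0.0087. In replicate 1 the matching peak had a signal of 24.8, 0.957 times the list median and rank 1136, with its summit 175 bp to the left and a q-value of 0.596. In replicate 3 it had a signal of 91.61, 4.9 times the median and rank 88, with its summit 1 bp away. The peak was thus a high one in replicate 3 and below the list median in replicate 1.

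Rank 153 lay at 479806-480225 with its summit at 480016, 328 bp upstream of the cbt start and so within the 500 bp counted here as promoter. Its signal was 117.7 with a q-value of 0.0134, close to the lowest optimal signal of 114.2. In replicate 1 it had a signal of 32.52, 1.26 times the median and rank 580, with its summit 83 bp to the right and a q-value of 0.265. In replicate 3 it had a signal of 76.25, 4.07 times the median and rank 148, 6 bp to the right, with a q-value of 0.00243. It too ranked higher in replicate 3.

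**Figure D1:**
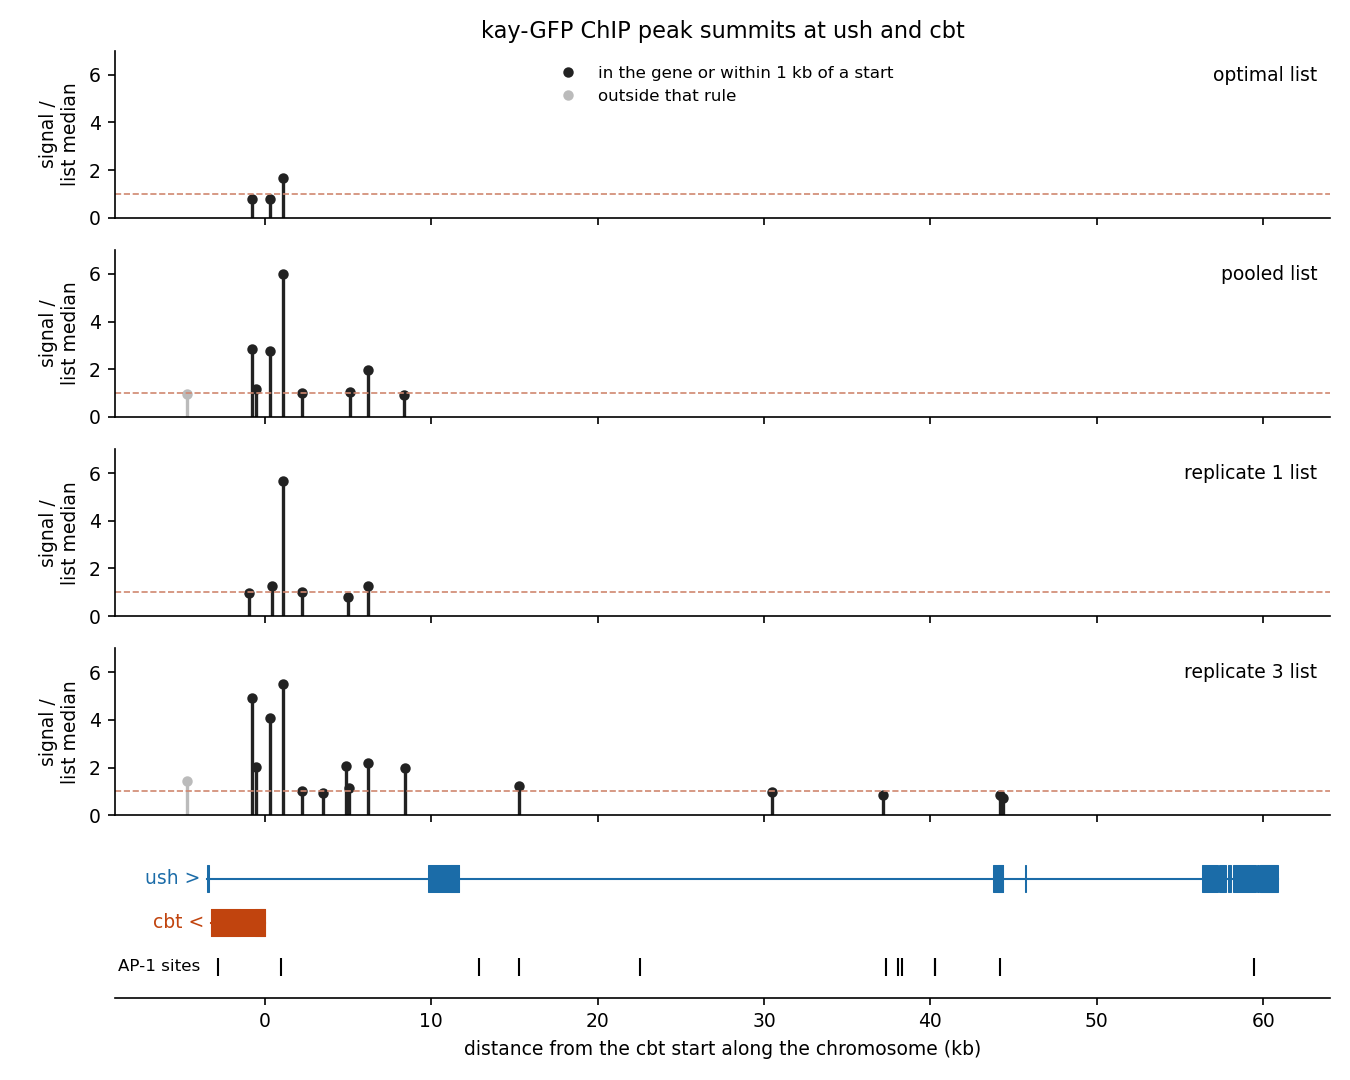
Summits at ush and cbt in the optimal, pooled, replicate 1 and replicate 3 lists, as the authors' signal divided by the nuclear median of that list, against the distance from the cbt start in kb, positive along ush. Black stems lie in a gene or within 1 kb of a start, grey ones do not, the dashed line is the list median, boxes are exons of all transcripts, and ticks are exact AP-1 sites. The highest stem in every list is the peak of rank 20, just right of the cbt start, and the stems far to the right appear in replicate 3.

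All 165 nuclear peaks of the optimal list had a replicate 3 summit within 210 bp, about the distance from a summit to its peak's edge, and 148 also had one in replicate 1. Over those 148 the replicate 3 multiple of the median was 1.7 times the replicate 1 multiple at the median, and it was the higher of the pair at 134 peaks. For rank 139 it was 5.12 times as high, the highest of the 148, and for rank 153 it was 3.23 times as high, a value reached by 6 peaks, rank 153 included. For rank 20 it was 0.972 times, a value that 136 of the 148 reached. Rank 139 was also the 1 peak of the 148 that fell below the list median in replicate 1. Its replicate 1 summit lay 175 bp away, where the median distance was 12 bp and 3 peaks had one more than 150 bp away. Whether that summit marks the same site was not tested. By multiples of the median the pair of peaks nearest to the cbt start thus stood much higher in replicate 3. The peak farther upstream had nearly equal multiples, where 134 of the 148 peaks had a higher one in replicate 3. Relative to those peaks rank 20 thus stood lower in replicate 3.

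**Figure D2:**
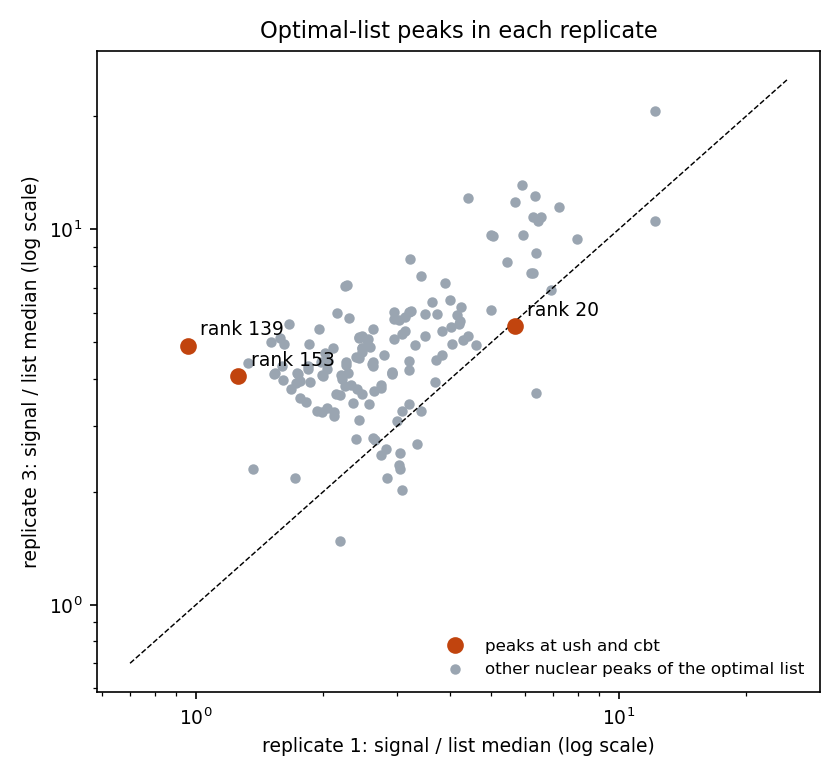
Each of the 148 optimal nuclear peaks with a summit in each replicate list, by its signal over the list median in replicate 1 (x axis, log scale) and replicate 3 (y axis, log scale). The dashed line marks equal multiples; rank 20 lies close to it at 5.68 and 5.52, and ranks 139 and 153 lie well above it near the left edge.

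The rest of the ush intron held weaker summits. The longer lists together placed summits at 14 separate places in ush and cbt, 6 of them in the lists of both replicates and 8 in replicate 3 alone. The places at 478898 and 484555 count among the 6 through replicate 1 summits 175 and 112 bp away. Whether these mark the same sites was not tested. After the 3 optimal peaks the highest pooled summit was at 485856, rank 398, with a signal of 82.49 and a q-value of 0.0892. It was rank 593 in replicate 1, 1.25 times the median, and rank 949 in replicate 3, 2.18 times the median. The summit at 481909 was at the median in each list, with 42.32 in the pooled list, 25.81 in replicate 1 and 18.73 in replicate 3. The place at 484555 was rank 1676 in replicate 1 and rank 1117 in replicate 3. The other pooled summits, at 479125, 484807 and 488030, ranked 1495, 1936 and 2762 and had no replicate 1 summit of their own.

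The summits of ush were gathered at its 5′ end. The first intron held all 3 optimal, all 8 pooled and all 6 replicate 1 summits of the gene, and 10 of its 15 replicate 3 summits, that is 6.07 pooled and 7.58 replicate 3 summits per 10 kb. When the nuclear chromosome arms were cut into 10151 consecutive stretches of 13185 bp, 4 held 3 or more optimal summits (0.0394%), 25 held 8 or more pooled summits (0.246%), 12 held 6 or more of replicate 1 (0.118%) and 82 held 10 or more of replicate 3 (0.808%). Those shares are a description, since the intron was picked for its peaks. Beyond the intron ush had 5 summits, all in replicate 3 alone, with signals of 13.91 to 22.77 and ranks from 4359 down to 13185.

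None of the optimal, pooled or replicate 1 summits lay within 1 kb of a ush start. From the start at 476220, used by ush-RD and ush-RE, the nearest optimal summit was 2678 bp downstream, and the nearest pooled and replicate 3 summits were 1234 and 1230 bp upstream, in an intron of the neighbour MED15. The start of ush-RB at 490835 had its nearest summit 2709 bp upstream, in replicate 3. The starts of ush-RA and ush-RC, at 523466 and 523736, had a replicate 3 summit at 523864, rank 9564 with a signal of 16.17, 398 and 128 bp downstream. The cbt start at 479688, shared by its 3 transcripts, had a summit within 411 bp in all 4 lists.

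The locus stood alone in the optimal list over a long stretch: the next optimal summits were at 166721, 309499 bp to the left of ush in spen, and at 2130623, 1590063 bp to the right near Glyp. In replicate 3 the nearest summit to the right was at 552717, rank 263 with a signal of 62.84, 206 bp downstream of the start of Ets21C, which encodes an ETS-domain factor that acts with AP-1 downstream of JNK. Ets21C had no summit in the other 3 lists.

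srp, GATAe and pnr are neighbours on chromosome arm 3R and all run along the plus strand within 55.65 kb. srp (FBgn0003507) lies at 15986152-16004085, GATAe (FBgn0038391) at 16009105-16019133 and pnr (FBgn0003117) at 16026079-16041796. None of the 3 had an optimal summit, and no summit of theirs in any list had a q-value of at most 0.05. The nearest optimal summit was rank 45 in tara, 195034 bp to the right of pnr.

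GATAe, the midgut factor, was the 1 gene of the 3 with summits in both replicates. Its highest pooled peak had its summit at 16011855, 2750 bp into the gene in an intron of the longer transcripts and 419 bp upstream of the start of GATAe-RA at 16012274. Its signal was 65.5, rank 738 of 4317 and 1.55 times the median, with a q-value of 0.218. In replicate 1 the matching summit was rank 426 of 2024, with a signal of 36.23 and a q-value of 0.187, 34 bp to the left. In replicate 3 it was rank 1194 of 13804, with a signal of 37.47 and a q-value of 0.208, 116 bp to the right. These values stood 1.4 and 2 times over the medians of replicates 1 and 3, moderate levels that no list put at a q-value of 0.05.

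A neighbouring pooled summit at 16012057, 217 bp upstream of the same start, was rank 1323 with a signal of 52.3, and rank 1657 in replicate 1 with 21.36. The single replicate 3 summit, at 16011971, lay between them. The third pooled summit of GATAe, at 16015311, was among the lowest of the list, rank 4282 with a signal of 31.79. Replicate 3 placed 5 summits at GATAe in all, the lowest with a signal of 17.38.

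srp, the factor of fat body and blood cells, had 5 summits, all in replicate 3 and none in the other 3 lists. Their signals were 28.26 at 15993319, 27.2 at 16004057, 22.43 at 15991756, 21.65 at 15987416 and 16.12 at 15988931, between 0.862 and 1.51 times the median, with ranks from 2526 to 9607. Of these, 3 lay in introns, 1 in a 5′ UTR and 1 in the 3′ UTR, and 4 of them also lie in the noncoding RNA gene lncRNA:CR44133, which overlaps srp. A further replicate 3 summit at 15985068, rank 2790, missed the rule at 1084 bp upstream of the first srp start. Between srp and GATAe, in lncRNA:CR42839, a summit at 16005274 was rank 1260 in the pooled list with a signal of 53.08 and rank 2700 in replicate 3 with 27.48. It lay 1189 bp past the end of srp and had no counterpart in replicate 1.

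pnr, the partner that ush restrains in bristle formation, had no summit in any list over its 15718 bp. The nearest replicate 3 summit to a pnr start was 7060 bp upstream, inside the end of GATAe. Of the 1977 protein-coding genes of 10 kb or longer, 444 likewise had none in replicate 3. The list of replicate 3 runs down to a signal of 13.59, and a lower signal at pnr would not be listed.

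**Figure D3:**
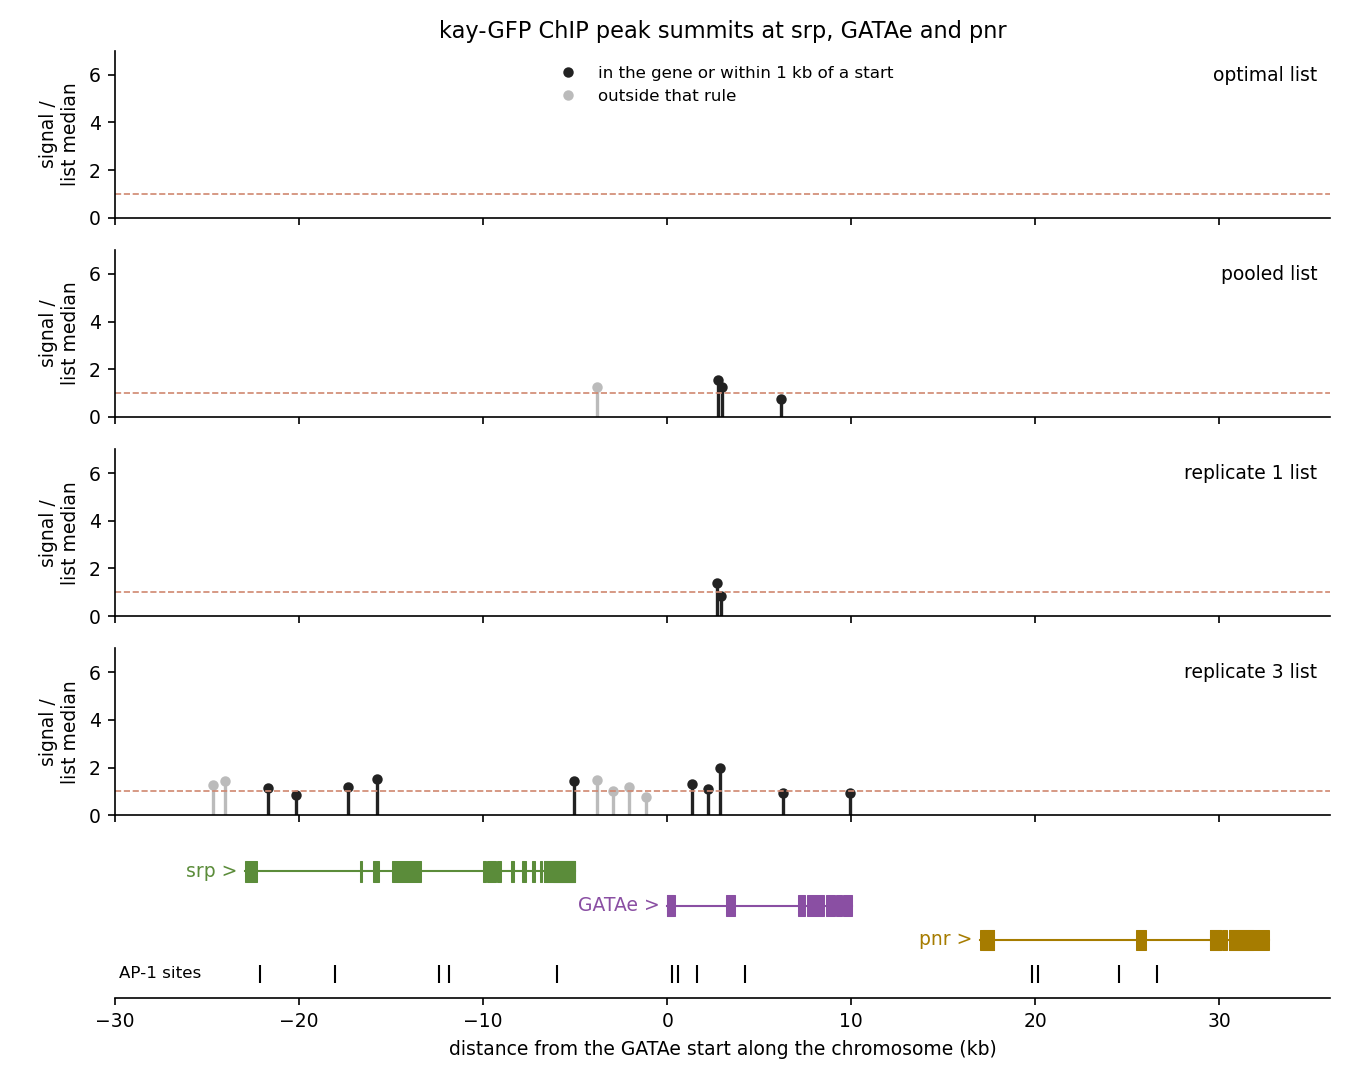
Summits at srp, GATAe and pnr in the same form as the map of ush and cbt, against the distance from the GATAe start in kb and on the same vertical scale. The optimal panel is empty, the black pooled and replicate 1 stems stand at GATAe, and the srp stems are in replicate 3. Grey stems stand between srp and GATAe in the pooled and replicate 3 panels, and left of srp in replicate 3. No stem stands over pnr.

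Set against gene length, replicate 3 had 2.33 summits per 10 kb at ush, 2.79 at srp and 4.99 at GATAe, where the long genes had a median of 0.922 and a 90th percentile of 4.39. Of the 1977 long genes, 516, 411 and 145 were at or above ush, srp and GATAe. In replicate 1, ush had 6 summits and GATAe 2, and 180 and 43 long genes had as many per 10 kb. By summits per 10 kb GATAe thus stood higher among long genes than ush did, while by their number, 15 against 5 in replicate 3, and by the rank of its best summit ush stood above it.

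**Figure D4:**
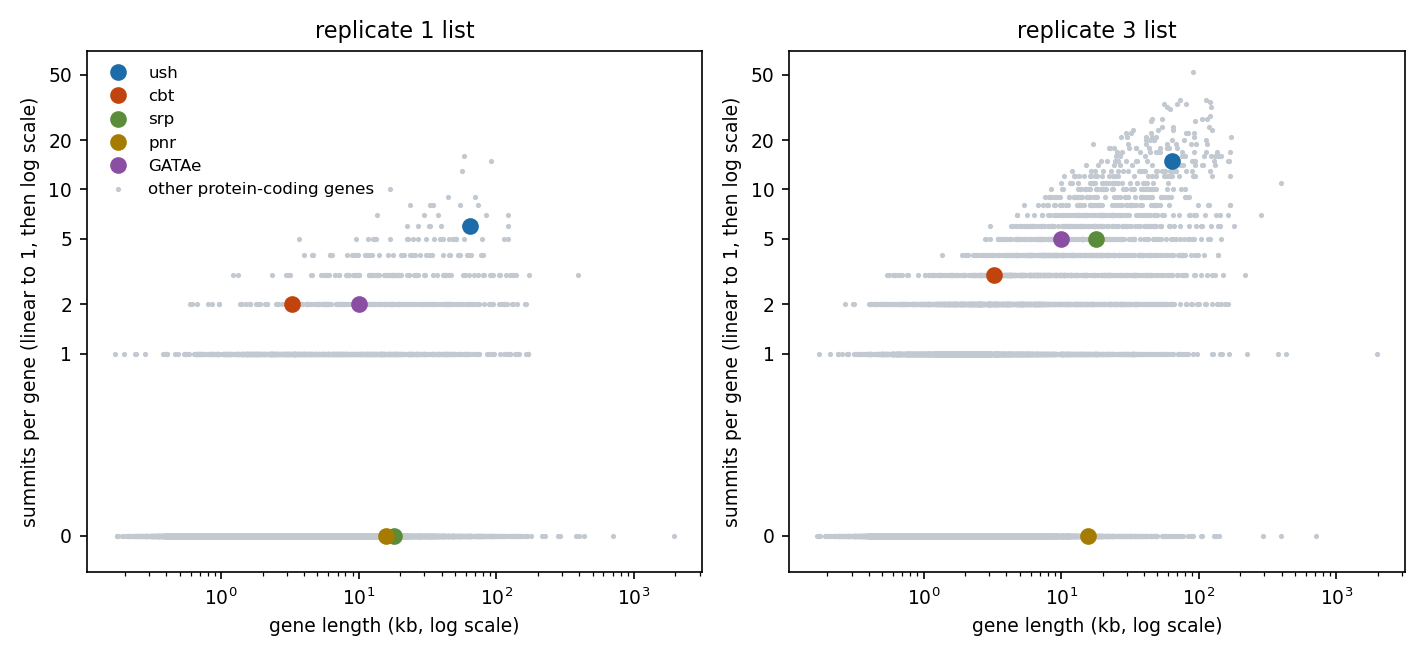
Summits per gene against gene length in kb (log scale) in the lists of replicate 1 and replicate 3, the 5 genes in colour and all other protein-coding genes in grey. In replicate 3, ush at 15 summits, srp and GATAe at 5 and cbt at 3 lie within the cloud of genes of their length, and pnr lies at 0.

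Exact AP-1 sites were not scarce at the genes without high peaks. Within the gene or 1 kb of a start there were 12 sites at ush, 5 at srp, 4 at GATAe, 4 at pnr and 2 at cbt, both of them shared with ush. That is 1.84, 2.64, 3.63, 2.39 and 4.71 sites per 10 kb, where the nuclear arms as a whole held 11142 sites, or 0.834 per 10 kb. Within 100 bp of a summit lay 1 of the 12 ush sites in the optimal, pooled and replicate 1 lists and 3 in replicate 3, and none at srp, GATAe or pnr in any list. Over all nuclear sites, 0.35% lay that close to an optimal summit, 2.23% to a pooled one, 1.44% to one of replicate 1 and 4.6% to one of replicate 3.

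The site of rank 20, at 480680-480686, lay 94 bp left of the summit, near the edge of the window. Of the 38 optimal peaks with a site within 100 bp the median distance was 25.5 bp, and 2, rank 20 included, had it 94 bp away or more. Measured from the replicate summits the site was 98 bp away in replicate 1 and 92 bp in replicate 3. With a window of 50 bp no optimal peak of the locus held an exact site. The other sites near a summit were at 494934-494940, in the ush intron, and 523881-523887, in a ush 5′ UTR. Each lay 20 bp from a replicate 3 summit of low rank, 4359 and 9564, and far from any summit of the other lists.

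**Figure D5:**
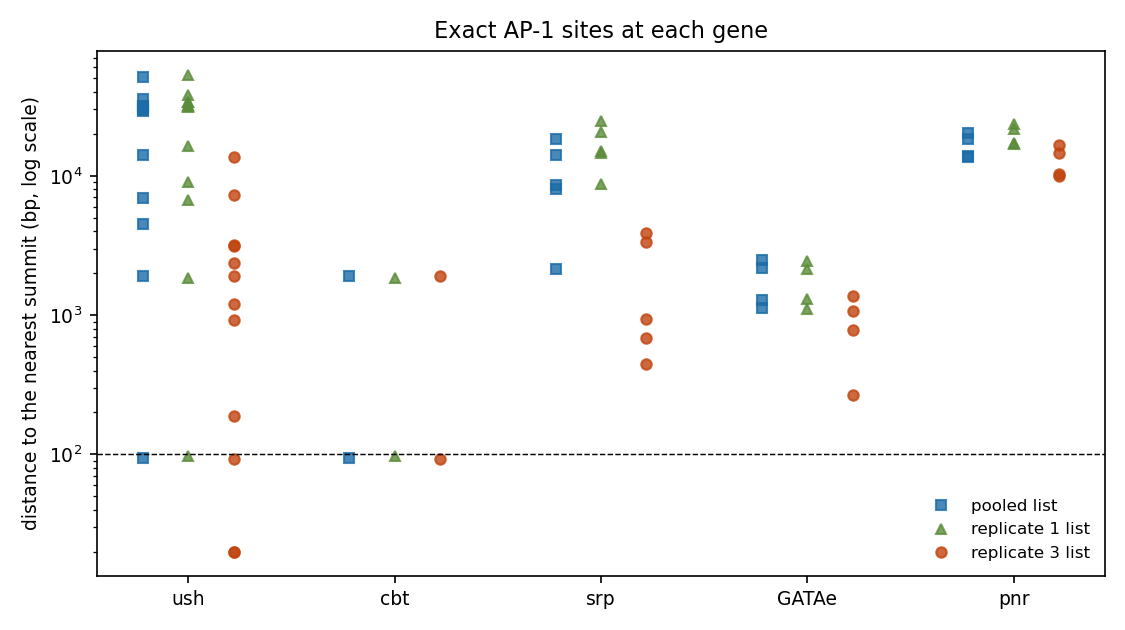
Distance in bp (log scale) from each exact AP-1 site at ush, cbt, srp, GATAe and pnr to the nearest summit of the pooled, replicate 1 and replicate 3 lists, with a dashed line at 100 bp. Sites shared by ush and cbt appear under each. The points of ush and cbt reach below the line, and those of pnr all lie at 9930 bp or more.

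The share of peaks with an exact AP-1 site in the window of 201 bp around the summit was 1 of 3 at ush and cbt in the optimal list, against 23% of all its nuclear peaks. In the pooled list it was 1 of 11 at the 5 genes, against 5.58%, in replicate 1 it was 0 of 8, against 7.36%, and in replicate 3 it was 3 of 25, against 3.49%. The replicate 1 summit of rank 20 sat 4 bp further right, which put the outermost base of the site outside the window. The same windows at all 23581 transcription starts held a site in 1.66%, and consecutive windows over the nuclear arms in 1.59%. With 1 mismatch allowed the shares were 3 of 3, against 58.8% of optimal peaks, and 6 of 11, against 37.4% of pooled peaks, where starts had 29.4% and the arms 30.1%. A near match is thus common in any window of this length.

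GATA words were searched on each strand as AGATAA with A or T as the first base and A or G as the last. They were within 100 bp of 1 of 3 optimal summits, rank 139 in the cbt 5′ UTR, against 36.4% of all optimal peaks. They were in 5 of 11 pooled windows, against 44.5%, in 2 of 8 of replicate 1, against 45.6%, and in 15 of 25 of replicate 3, against 40.8%. Starts had them in 30.3% and the arms in 30.1%. The KLF word CACCC, also on each strand, was in 1 of 3 optimal windows, again rank 139, against 21.8%, and in 2 of 11 pooled windows, against 16.1%, with 17.2% at starts and 21.5% over the arms. The CRE word TGACGTCA was in none of the windows of the 5 genes, against 3.64% of optimal peaks. GAGAGAG, a word of the GAGA factor, was in none of the optimal windows, against 15.2%, and in 1 of 25 in replicate 3, against 4.13%. No test was made of these shares, which rest on few windows.

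Of 66 genes in lists of GATA and KLF factors, ush partners and genes tied to pnr, srp, GATAe or ush, 3 had an optimal summit: hry, and ush and cbt, for which the set was chosen. There were 17 with a pooled summit, 14 with one in replicate 1 and 34 in replicate 3. Of all protein-coding genes 1.22%, 15.2%, 9.52% and 34.7% had one in the optimal, pooled, replicate 1 and replicate 3 lists. Of those of 10 kb or longer, as luna, Bx, Mef2 and svp are, 3.54%, 45.7%, 30.8% and 77.5% had one. The 66 genes were not matched for length. hry, a repressor of bristle formation, had its optimal summit 133 bp upstream of its start, rank 92 with a signal of 146, rank 149 in replicate 1 and rank 105 in replicate 3, and no AP-1 site within 100 bp.

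Of the 5 GATA factor genes, 0 had an optimal summit, 2 had a pooled and a replicate 1 summit, and 4 had one in replicate 3. Of all protein-coding genes 1.22%, 15.2%, 9.52% and 34.7% had one in the optimal, pooled, replicate 1 and replicate 3 lists. Of those of 10 kb or longer 3.54%, 45.7%, 30.8% and 77.5% had one. The highest summit of the 5 genes was at GATAd, not at one of the 3 clustered genes. Its pooled summit 76 bp downstream of the start was rank 185, with a signal of 109.7 and a q-value of 0.016, just short of the lowest optimal signal, and a second summit in an intron was rank 210 with 104. In replicate 1 the pair were ranks 147 and 138, and in replicate 3 ranks 265 and 294, so GATAd ranked above GATAe in every list that held either. No exact AP-1 site lay within 100 bp of these summits. grn, the fifth family member, had 1 replicate 3 summit, rank 12127.

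Among the 7 ush partner genes, with ush itself in the count, 1 had an optimal summit and 5 a pooled one. In replicate 1 it was 2 of them and in replicate 3 it was 6. Of all protein-coding genes 1.22%, 15.2%, 9.52% and 34.7% had a summit in those lists. Of those of 10 kb or longer, as ush, Bx, tup, ap and CtBP are, 3.54%, 45.7%, 30.8% and 77.5% had one. Apart from ush the best pooled ranks were 1122 at CtBP, the corepressor that ush binds, 1784 at Bx, 2843 at tup and 3590 at ap. Ssdp had 1 replicate 3 summit, rank 5997, and Chi had none. Of the 8 KLF and Sp genes, 1 had an optimal summit, which was cbt, 2 a pooled and a replicate 1 summit, and 5 one in replicate 3. These counts too are to be read beside those shares. luna was the other with a pooled summit, rank 927 with a signal of 60.39 in an intron. dar1, btd and Spps had 1 weak replicate 3 summit each, and Klf15, Sp1 and CG3065 had none.

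In the lists of genes tied to srp, pnr, GATAe or ush, the counts are to be read beside the same shares of all protein-coding genes and of the long ones. Of 17 matched blood cell genes, 0 had an optimal summit and 1 a pooled one, and 6 had one in replicate 3. The pooled gene was Pvr, a receptor kinase of blood cells, with 4 summits, the best of rank 840. Of 11 heart genes 0 had an optimal, 2 a pooled and 4 a replicate 3 summit, with Mef2, a muscle factor, at pooled rank 245. Of 9 fat body and gut genes, 0 had an optimal, 3 a pooled and 4 a replicate 3 summit, with Adh, alcohol dehydrogenase, at pooled rank 368. Of 9 proneural and other genes tied to pnr, 1 had an optimal, 2 a pooled and 5 a replicate 3 summit, and ac, sc and ase had none in any list. Pvr, Mef2 and Adh were named after their values were seen.

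The protein-coding genes most like each locus in rank were found by the sum, over the pooled, replicate 1 and replicate 3 lists, of the absolute differences in log10 of the best rank. Nearest to ush, with best ranks of 20, 15 and 55 in those lists, was Jra, the fly Jun gene, with 22, 20 and 35 and a sum of 0.363, followed by Atg17 at 0.481 and Vps60 at 0.494. Nearest to cbt, with 139, 580 and 88, were CG46385 at 0.314, CHES-1-like at 0.406 and Pp2C1 at 0.447. Nearest to GATAe, with 738, 426 and 1194, were CG43739 and sky, both at 0.0255, and ringer at 0.0398. CG43739 and sky had the same ranks because their best summit in each list was the same peak. The likeness rests on 3 lists, of which the pooled one was made from the same libraries as the others.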

How the data were processed

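ChIP-seq peaks of kay were taken from 4 deposited lists on dm6, per the deposited listing of files: 1 per replicate, each made from that library's alignments and 1 control file, 1 from both pooled, and the optimal list after IDR. The optimal list repeats the pooled values at 198 of 199 peaks. In the deposited lists the authors gave each peak a signal, a -log10 q-value and a summit offset. The score and p columns held 0 and -1 throughout and were not used. The aligner, peak caller, IDR threshold and read depth were not given in the sources used here. None of the 4 dm3 lists was used.

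Summits were joined to the Release 6 genome and Ensembl release 115 genes with Python 3.11.15, in 1-based coordinates, without mitochondrial peaks. A summit counted as in a promoter within 500 bp of a start. Summits of different lists within 210 bp were paired with the nearest. q-values were computed from the deposited column. Motif and gene matching were tested on simulated data. Alternatives were other distances, windows, q-values, whole peak intervals, rankings, and each replicate's own list. The genes, gene lists and comparisons were chosen with earlier results of these data known. Named genes were the 5 genes, the other GATA, KLF, Sp and partner genes, list genes with an optimal summit, neighbours of optimal peaks and the most alike genes. Of the gene list symbols 1 was not matched.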

Additional observations from a re-analysis of the deposited data

How the results depend on the processing

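Of 39 alternatives computed, 29 stayed within 1.5 times of the reported value. The 2 genes and 3 peaks of the optimal list were the same in number at 500 and 2000 bp to a start, with whole peak intervals and at a q-value of at most 0.05, and at 0.01 the genes were 2 and the peaks 2. In the 165 highest nuclear peaks of each replicate's own list, the genes with a summit numbered 1 to 2 and the peaks 1 to 3, the lower value without replicate 3. The 11 pooled peaks became 3 at a q-value of at most 0.05 and 2 at 0.01, and were 8 to 11 in the replicates' own lists cut to the 4317 highest nuclear peaks, a limit that the shorter list of replicate 1 does not reach. Optimal peaks with an exact AP-1 site, 1 in 100 bp, were 0 in 50 bp, 3 with 1 mismatch allowed, and 0 to 1 among the replicates' own peaks that overlap them, the lower value without replicate 3. The best rank, 20, became 53 with mitochondrial peaks kept, 1 by q-value, where 125 peaks tied, and 15 to 55 in the replicates. The related genes with a summit were 3 to 4. No paired analysis was possible because there is 1 group. The cause was not tested for any of these. With 2 replicates, each on its own signal scale, the replicates were compared by rank and by multiples of the median, and no SD is given. Read depth is unknown and the control used by the authors was not analysed here, so no detection limit is given, and a gene without a listed summit may still be bound below the lists' floors.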
